A study of Mus musculus with 5 samples.

Results

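Chemokine receptors are the surface receptors with which lymphocytes read gradients of chemokines, and 10 of their genes (Ccr2, Ccr4, Ccr6, Ccr7, Ccr8, Ccr9, Cxcr3, Cxcr4, Cxcr5 and Cxcr6) were examined in group 2 innate lymphoid cells (ILC2s) of the mouse lung. The members were taken by name. Each was required to have a probe set that the platform annotation pairs with that symbol alone, and all 10 of the 22180 genes so measured had 1 such probe set. The tested cells came from naive IL-33 knockout mice (2 arrays) and the control cells from naive wild-type mice (3 arrays). Both groups are labelled as ILC2s of adult male lungs and as biological replicates. The strain, the part of Il33 removed, the sorting gate and the number of animals behind an array are not stated in the labels. The p-values therefore refer to these arrays and not to a known number of animals. Their error combines the spread between arrays with spread borrowed from other genes. The comparison asks how receptor transcripts of naive ILC2s stand where IL-33 has been missing.

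A chemokine receptor couples through its intracellular loops to inhibitory G proteins, and the signal is ended by RGS proteins, receptor kinases and arrestins. Which receptors a lymphocyte carries decides which tissues and niches it can enter and where it stays. ILC2s are resident cells that respond to the alarmin IL-33, and receptors such as CCR8, CCR4, CXCR6 and CXCR4 are known from studies of their recruitment and retention.

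Cxcr6, Cxcr4, Ccr8 and Ccr2 gave the strong signals and carry most of what follows, so the 250 bases before their transcription starts are shown, taken from RefSeq (mouse build GRCm38.p6), 5′ to 3′ on the strand of the gene. The windows lie at chr9:123806227-123806476 (plus strand), chr1:128592300-128592549 (minus strand), chr9:120091883-120092132 (plus strand) and chr9:124101933-124102182 (plus strand). Capitals mark matches, on either strand, to the GATA letters AGATAA or TGATAA, the AP-1 letters TGANTCA, the RUNX letters TGTGGT or the ROR letters AGGTCA, and no 2 kinds of match overlapped in these windows.
Cxcr6: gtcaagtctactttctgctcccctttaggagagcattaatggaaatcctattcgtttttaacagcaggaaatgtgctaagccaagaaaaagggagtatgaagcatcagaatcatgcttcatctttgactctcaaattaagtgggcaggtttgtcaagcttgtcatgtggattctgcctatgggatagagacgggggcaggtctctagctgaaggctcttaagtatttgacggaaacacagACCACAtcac
Cxcr4: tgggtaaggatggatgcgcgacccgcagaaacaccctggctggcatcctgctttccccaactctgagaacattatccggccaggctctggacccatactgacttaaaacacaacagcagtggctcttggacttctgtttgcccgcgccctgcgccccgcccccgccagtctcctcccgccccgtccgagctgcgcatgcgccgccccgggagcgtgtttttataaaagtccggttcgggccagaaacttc
Ccr8: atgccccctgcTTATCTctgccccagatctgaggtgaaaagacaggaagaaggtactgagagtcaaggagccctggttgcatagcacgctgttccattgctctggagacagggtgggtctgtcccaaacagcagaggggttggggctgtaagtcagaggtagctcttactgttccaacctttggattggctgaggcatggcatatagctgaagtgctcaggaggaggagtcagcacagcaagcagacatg
Ccr2: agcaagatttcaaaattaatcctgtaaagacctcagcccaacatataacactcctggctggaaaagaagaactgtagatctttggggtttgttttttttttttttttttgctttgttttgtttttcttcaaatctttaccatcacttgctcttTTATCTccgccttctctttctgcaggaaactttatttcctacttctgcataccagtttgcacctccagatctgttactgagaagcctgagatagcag
The Cxcr4 window held none of the 4 motifs and had the highest share of G and C, 61.2%, against 53.6% for Ccr8, 43.6% for Cxcr6 and 37.2% for Ccr2. Ccr8 and Ccr2 each held 1 GATA match, 239 and 97 bases before the start, and Cxcr6 held 1 RUNX match 10 bases before it. Windows were listed for 8 of the 10 genes. A GATA match was found in the first listed window of 2 of these 8, AP-1 in 1, RUNX in 2 and ROR in 1. Over 27025 promoters of the same length, 17.0% held a GATA, 6.87% an AP-1, 14.2% a RUNX and 13.8% a ROR match. These are matches of letters and were not read as binding sites.

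Values are log2 probe-set signals on 5 arrays with 41345 probe sets each, and array medians lay between 4.29 and 4.33. The number of arrays limits the precision. All 14 measured ILC2 markers lay above the median gene, among them Il7r, a survival cytokine receptor gene, at 11.45 and 11.44 in the knockout and 11.26 to 11.38 in wild-type arrays. Gata3, the ILC2 lineage factor gene, was at 8.21 and 7.89 in knockout and 8.16 to 8.50 in wild-type arrays. Il33 read 3.79 and 3.95 in knockout arrays and 3.32 to 3.39 in wild type, near the floor, and its probe position relative to the deleted part is not known here, so it does not check the genotype. Both knockout arrays stood apart from the others in some respect. Replicate 2 had a Xist signal of 7.91, against 2.35 to 3.10 on the other 4 arrays, although it is labelled male, and its Y-linked signals went both ways. Uty was at 7.17, against 5.83 to 6.96 on the other 4, Kdm5d at 4.79, against 5.57 to 5.63, and Eif2s3y at 6.14, against 6.82 to 7.62. Whether this library is mixed or mislabelled was not tested. Replicate 1 had Scgb1a1, an airway secretory gene, at 8.81 and replicate 2 had it at 5.93, against 3.62 to 5.01 in wild type. Receptor values are therefore given for each knockout array, and tests also without either one.

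**Figure D1:**
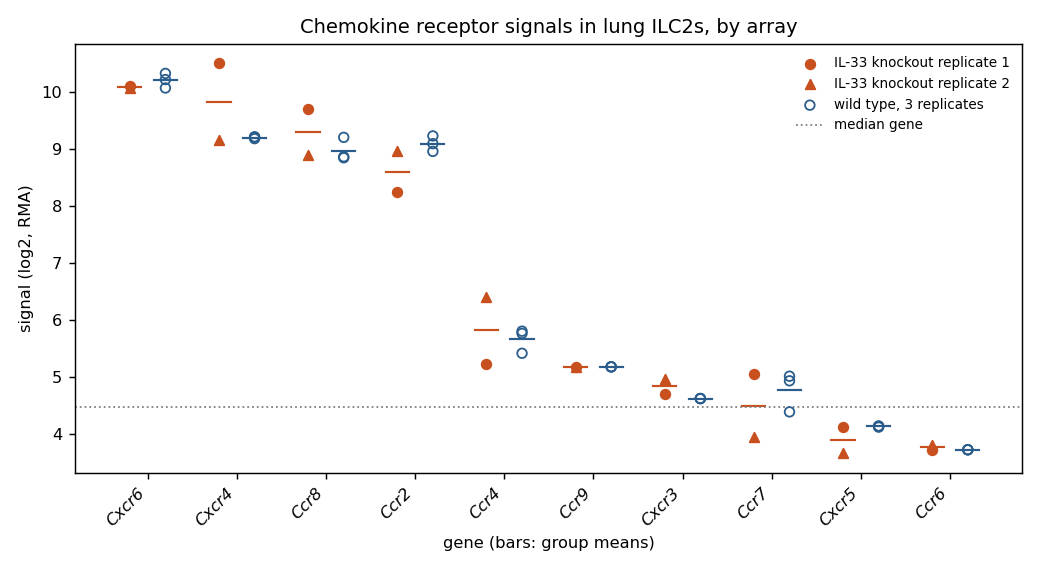
Log2 signal (y axis) of the 10 chemokine receptor genes (x axis) on each array, with the IL-33 knockout arrays (filled circle, replicate 1, and triangle, replicate 2) left of the 3 wild-type arrays (open circles). Short bars are group means and the dotted line is the median gene. Cxcr6, Cxcr4, Ccr8 and Ccr2 lie far above the line in both genotypes, and the circle and triangle are widely apart for Cxcr4, Ccr4 and Ccr7. Signals of different probe sets are not amounts that can be compared.

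The 10 receptors fell into 4 genes with a strong signal in every library, 4 near or moderately above the median gene (4.48) and 2 below the median probe set on every array. For none of the 10 did the difference between IL-33 knockout and wild-type ILC2s pass the test, which does not show that they were alike. With limma, 0 of the 16635 genes tested passed an adjusted p of 0.05 (0.00%), and 0 of the 10 receptors had an unadjusted p below 0.05, which 7.64% of all genes tested had. The difference was above 0 for 5 receptors, below 0 for 4 and exactly 0 for 1. Their median difference was 0.02, against 0.04 over all genes tested. The strong signal of Cxcr6, Cxcr4, Ccr8 and Ccr2 was in the top 5% of probe sets on every array, a place held by 4.06% of all genes tested. Probe affinity differs between probe sets, so no order of transcript amounts is drawn from these positions.

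Cxcr6, the receptor of the membrane-bound chemokine CXCL16, was the steadiest of the strong signals. It read 10.11 and 10.06 in the 2 knockout arrays, against 10.32, 10.07 and 10.21 in the wild-type arrays. The ranges overlapped, since knockout replicate 1 lay within the wild-type values and replicate 2 just under them. The mean difference was -0.12 with a standard error of 0.09, a 95% interval of -0.38 to 0.15 and limma's adjusted p at 0.634. Over all 14 alternatives the difference stayed between -0.18 and -0.06, although the probe-set, filter and variance-model settings cannot change it.

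Cxcr4, the receptor of CXCL12, which holds many blood cells in their niches, had the widest difference of the 10 genes, and it came from 1 array. Its signal was 10.49 in knockout replicate 1 and 9.16 in knockout replicate 2, against 9.21, 9.18 and 9.20 in wild type. Replicate 1 was thus at 2.46 times the wild-type mean, while replicate 2 lay slightly below all 3 wild-type arrays. The difference of the means was 0.63 (SE 0.44, 95% interval -0.60 to 1.86, limma's adjusted p = 0.623), in a setting where 13.1% of all genes tested differed by at least 0.5. Without knockout replicate 2 the difference was 1.30 with an adjusted p of 0.0320, and without replicate 1 it was -0.04 with an adjusted p of 0.543. Both fits have 1 knockout array, whose spread is taken to be that of wild type. Of all genes tested, 2.34% passed without replicate 2 and 6.44% without replicate 1. The array with the high Cxcr4 signal also had higher means for some, not all, lists of markers of other cells. Its mean over 14 lung epithelium markers was 5.08, against 4.64 in knockout replicate 2 and 4.23 to 4.38 in wild type, and the widest gaps to the wild-type mean were those of Scgb1a1 (4.27) and Scgb3a2 (4.05). Over 14 granulocyte and mast cell markers it was 4.16, against 3.89 and 3.64 to 3.83. Among the epithelium markers Cdh1 (-0.17), Krt18 (-0.24) and Foxj1 (-0.02) lay below the wild-type mean in this array. Among the granulocyte and mast cell markers Ly6g (-0.26), Mcpt8 (-0.11) and Ms4a2 (-0.01) did too. Endothelium and B cell means were also above wild type in this array, at 4.93 against 4.65 to 4.80 and at 4.05 against 3.88 to 4.002. In knockout replicate 2 they were higher still, at 5.14 and 4.14. The replicate 1 means over T cell, fibroblast, NK cell and ILC1 markers lay inside the wild-type range. So did that over monocyte, macrophage and dendritic cell markers, and that over ILC3 markers was just below. The part of other cells in the Cxcr4 signal was not tested.

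Ccr8, a receptor for CCL1 and, in the mouse, CCL8, is found on ILC2s, type 2 helper T cells and regulatory T cells. It read 9.70 and 8.90 in knockout arrays, against 8.86, 9.20 and 8.84 in wild-type arrays. Again knockout replicate 1 was the high one, at 1.66 times the wild-type mean, and replicate 2 lay inside the wild-type range. The difference was 0.33 (SE 0.30, 95% interval -0.50 to 1.16, adjusted p = 0.660 with limma). Without replicate 1 it was -0.07.

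Ccr2, the receptor of CCL2, CCL7 and CCL12, is best known for bringing monocytes out of the bone marrow. Its signal was 8.25 and 8.96 in knockout ILC2s, against 9.09, 8.96 and 9.23 in wild-type ILC2s. Here knockout replicate 1 was the lowest of the 5 arrays, at 0.56 of the wild-type mean, and replicate 2 had exactly the value of wild-type replicate 2. The difference was -0.49 (SE 0.25, 95% interval -1.19 to 0.22), and limma's adjusted p was 0.623. Without knockout replicate 1 the difference was -0.14, and without replicate 2 it was -0.84. Markers of monocytes, macrophages and dendritic cells were dim, with 2 of 14 above the median gene. Their mean was 3.95 and 3.96 in knockout against 3.75 to 4.09 in wild-type arrays. In wild-type replicate 2, which had the mean of 4.09, Lyz2 read 5.58, against 2.47 to 3.77 on the other arrays. Csf1r, the growth factor receptor gene of that lineage, was too dim to be tested and read 3.68 and 3.72 against 3.26 to 3.59. Of the 11 markers tested, 6 were above and 5 below 0 in difference.

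**Figure D2:**
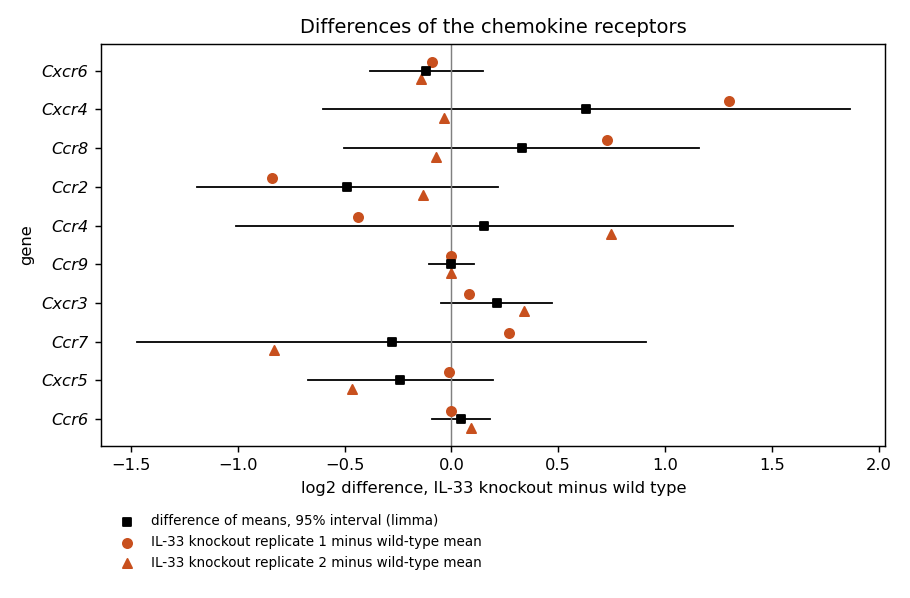
Log2 difference (x axis), IL-33 knockout minus wild type, for the 10 chemokine receptor genes (y axis). Black squares with bars are limma's difference of means with its 95% interval, all of which include 0, and orange circles and triangles are knockout replicates 1 and 2, each minus the wild-type mean. The 2 replicates lie on opposite sides of 0 for Cxcr4, Ccr8, Ccr4 and Ccr7.

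Ccr4, the receptor of CCL17 and CCL22 and a marker of type 2 lymphocytes that enter skin and airways, was moderate in signal and split between the knockout arrays. It read 5.23 and 6.41 in knockout, against 5.77, 5.81 and 5.42 in wild type. Replicate 1 lay below every wild-type array and replicate 2 above every one. The mean difference of 0.15 therefore had a standard error of 0.41 and a wide 95% interval of -1.01 to 1.32 (limma's adjusted p = 0.885). It was -0.44 without replicate 2 and 0.75 without replicate 1.

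Ccr7, the receptor of CCL19 and CCL21 that guides cells into lymph nodes, was split the other way. Its signal was 5.05 and 3.96 in knockout arrays, against 4.94, 5.02 and 4.39 in wild type. Replicate 1 was just above the wild-type range and replicate 2 below it. The difference was -0.28 (SE 0.42, 95% interval -1.47 to 0.91, adjusted p = 0.781 with limma), and it was 0.27 without replicate 2 and -0.83 without replicate 1.

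The 2 knockout arrays lay on opposite sides of the wild-type mean for 4 of the 10 receptors (Ccr4, Ccr7, Ccr8 and Cxcr4), against 23.7% of all genes tested. For Ccr4, Ccr7 and Cxcr4 both knockout arrays were also outside the wild-type range, which is 3 of 10 receptors, against 9.59% of all genes tested. The same 3 receptors differed by at least 1 log2 unit between the 2 knockout arrays, as did 6.91% of all genes tested. Knockout replicate 1 was outside the wild-type range for 6 of the 10 receptors and replicate 2 for 7, against 47.8% and 54.0% of all genes tested. With 10 genes these counts are descriptions and were not tested.

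Cxcr3, which binds CXCL9, CXCL10 and CXCL11 and is a receptor of interferon-driven type 1 lymphocytes, was the 1 gene of the 10 whose groups did not overlap, against 18.0% of all genes tested. It read 4.71 and 4.97 in knockout arrays and 4.63 in all 3 wild-type arrays, close to the median gene. The difference was 0.21 (SE 0.09, 95% interval -0.05 to 0.47), with an unadjusted p of 0.0874 and an adjusted p of 0.623 in limma. Since the 3 wild-type values were exactly equal, their spread was 0 and the error came from the knockout arrays and from the spread that limma borrows from other genes. Without knockout replicate 1 the difference was 0.34, and without replicate 2 it was 0.08. Each of these fits has 1 knockout array and no measured spread for this gene. Markers of NK cells and ILC1s, cells that carry CXCR3, averaged 3.77 and 3.88 in knockout and 3.60 to 3.77 in wild-type arrays, and 2 of 10 lay above the median gene. Their part in the Cxcr3 signal was not tested.

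Ccr9, the receptor of CCL25 and of homing to the small intestine, had the same value, 5.18, on all 5 arrays. The difference was 0, and limma's 95% interval of -0.11 to 0.11 rests on the spread borrowed from other genes. Of all genes tested, 2.99% had 1 value on every array. Equal values between arrays were frequent in the deposited table, and 5 of the 10 receptors (Ccr4, Ccr7, Ccr8, Cxcr4 and Cxcr6) had 5 distinct values, against 36.4% of all genes tested.

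Cxcr5 and Ccr6, receptors of follicle-seeking lymphocytes and of cells drawn by CCL20, lay below the median probe set on every array, as 17.5% of all genes tested did. Cxcr5, whose ligand is CXCL13, read 4.13 and 3.67 in knockout arrays, against 4.14, 4.15 and 4.13 in wild type. Knockout replicate 1 shared the value of wild-type replicate 3 and replicate 2 was lower, so the difference of -0.24 (SE 0.15, 95% interval -0.67 to 0.19, limma's adjusted p = 0.623) came from 1 array. Without replicate 1 it was -0.47, and without replicate 2 it was -0.01, each from 1 knockout array. Ccr6 was at 3.73 in knockout replicate 1 and in all 3 wild-type arrays and at 3.82 in knockout replicate 2, a difference of 0.04 (SE 0.05, 95% interval -0.09 to 0.18, adjusted p = 0.707). Its sign turned to -0.01 after quantile normalization and after median centring. At such low signals no detection call was at hand, and the values are not read as expression. B cell markers, of a cell type known for Cxcr5, Ccr6 and Ccr7, averaged 4.05 and 4.14 in knockout and 3.99, 3.88 and 4.002 in the wild-type arrays, with 3 of 11 above the median gene. T cell markers averaged 5.09 and 5.11 in knockout against 5.07 to 5.11 in wild-type arrays, with 6 of 11 above the median gene. Cd3g among them read 9.10 and 9.51 in knockout and 9.43 to 9.74 in wild-type arrays. The part of B and T cells was not tested.

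In bulk RNA of this kind, fewer cells with a receptor and less of its RNA per cell cannot be told apart. For a single gene, 2 arrays against 3 allow 10 splits, and the smallest p of a two-sided exact permutation test is then 0.1, so none is given.

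Of the 10 receptor genes, 6 lie on chromosome 9, and Ccr9, Cxcr6 and Ccr2 belong to 1 receptor cluster there. In the gene order of the RefSeq table the measured protein-coding genes run Ccr9, Fyco1, Cxcr6, Xcr1, Ccr1, Ccr1l1, Ccr3 and Ccr2. The strong signals of Cxcr6 and Ccr2 stand at either side of receptor genes with signals near or under the median gene. Xcr1, a receptor of cross-presenting dendritic cells, was at 4.16 and 5.04 in knockout and 4.23 to 4.44 in wild-type arrays. Ccr1, a receptor of myeloid cells, read 3.60 and 3.51 in knockout and 3.60 in each wild-type array. Ccr3, the eotaxin receptor of eosinophils, was at 2.06 and 2.39 against 2.39 to 2.42, and Ccr1l1 between 2.26 and 2.30 on all 5 arrays. Fyco1, which encodes an adaptor of vesicle transport and no receptor, was at 7.11 and 6.72 against 7.11 to 7.17.

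**Figure D3:**
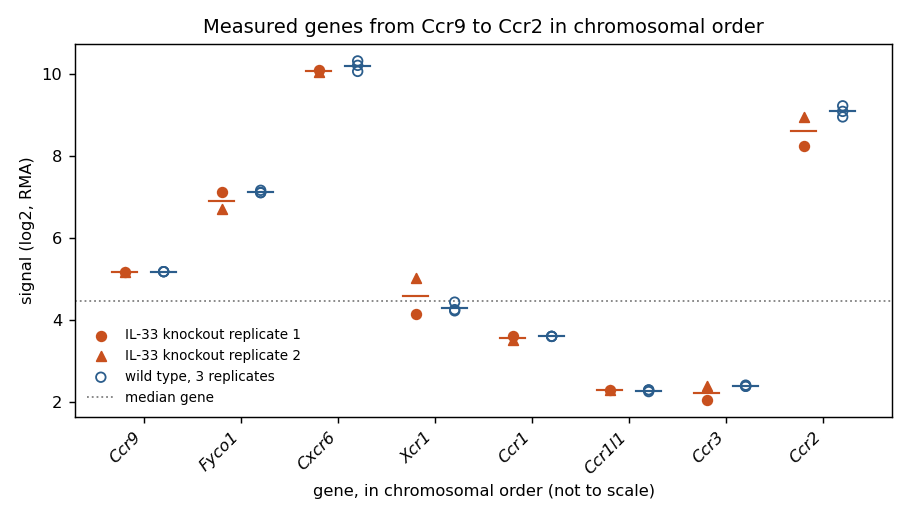
Log2 signal (y axis) of the 8 measured protein-coding genes from Ccr9 to Ccr2 in their chromosomal order (x axis, not to scale), with IL-33 knockout arrays (filled, replicate 1 circle and replicate 2 triangle) left of wild-type arrays (open circles). Cxcr6 and Ccr2 lie above 8, while Xcr1, Ccr1, Ccr1l1 and Ccr3 between them lie at or below 5.04.

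Among the remaining chemokine receptor genes, 15 of 16 listed were measured, 10 were bright enough to be tested, and 0 passed. None of the 10 had an unadjusted p below 0.05. Of them, 8 were above and 2 below 0 in difference, with a median of 0.28, against 57.1% above 0 and a median of 0.04 over all genes tested. Ccrl2, an atypical receptor that binds chemerin, had the lowest p of the list and read 7.19 and 6.44 in knockout arrays, against 6.44, 6.41 and 6.19 in wild type (difference 0.47, SE 0.26, limma's adjusted p = 0.623). As with Cxcr4 and Ccr8, replicate 1 was the high array. Cx3cr1, the fractalkine receptor gene, was at 5.11 and 5.68 in knockout and 6.31, 5.68 and 5.68 in wild type, a difference of -0.49. Gpr35, a receptor once reported to bind CXCL17, was at 4.96 and 5.43 against 4.74 to 4.96, and Ccr10, a receptor of mucosal lymphocytes, at 4.99 and 4.54 against 4.08 to 4.68. Cxcr2, the neutrophil receptor, read 5.76 and 5.15 against 4.96 to 5.38, and Ackr3, which scavenges CXCL12, 5.03 and 4.88 against 4.88 to 4.89. The groups overlapped for each of these 6 genes.

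The ligands of the 10 receptors are made mostly by stromal, epithelial and myeloid cells. Of 17 listed, 15 were measured and 13 tested, 10 with a difference above 0, 2 below and 1 at 0, and a median of 0.12. None passed. At an unadjusted p below 0.05 there was 1 of the 13, Cxcl16, whose product binds CXCR6, a share near the 7.64% of all genes tested. It read 5.70 and 5.98 in knockout ILC2s, against 5.17, 5.21 and 5.22 in wild-type ILC2s, and neither knockout array reached down into the wild-type range. The difference was 0.64 with a standard error of 0.10 and an adjusted p of 0.415 in limma. Its receptor gene differed by -0.12. Among the 13 tested ligands the groups did not overlap for 4, all higher in knockout, against 11.6% of all genes tested. Besides Cxcl16 these were Ccl2, a CCR2 ligand gene, at 4.21 and 4.95 against 3.95 to 4.01, and the CCR4 ligand genes Ccl17, at 3.65 and 4.95 against 3.08 to 3.43, and Ccl22, at 4.26 and 4.38 against 4.06 to 4.26. For all 4 replicate 2 was the higher knockout array. Cxcl9, a CXCR3 ligand gene that was too dim to be tested, read 4.13 and 3.76 in knockout arrays, against 3.07 to 3.31 in wild type, also without overlap. Ccl1 and Ccl8, both genes of CCR8 ligands, differed by 0.62 and 0.13 with overlap of the groups. Without knockout replicate 1, where 6.44% of all genes tested passed and the spread of the lone knockout array is taken from wild type, Ccl2 and Cxcl16 were among those that passed. Endothelium markers, of cells that can make several of these ligands, had list means of 4.93 and 5.14 in knockout against 4.65 to 4.80 in wild-type arrays, and 7 of 12 lay above the median gene. Not all members followed the mean, since 7 of the 10 tested were above and 3 below 0 in difference. Their part in the ligand signals was not tested.

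**Figure D4:**
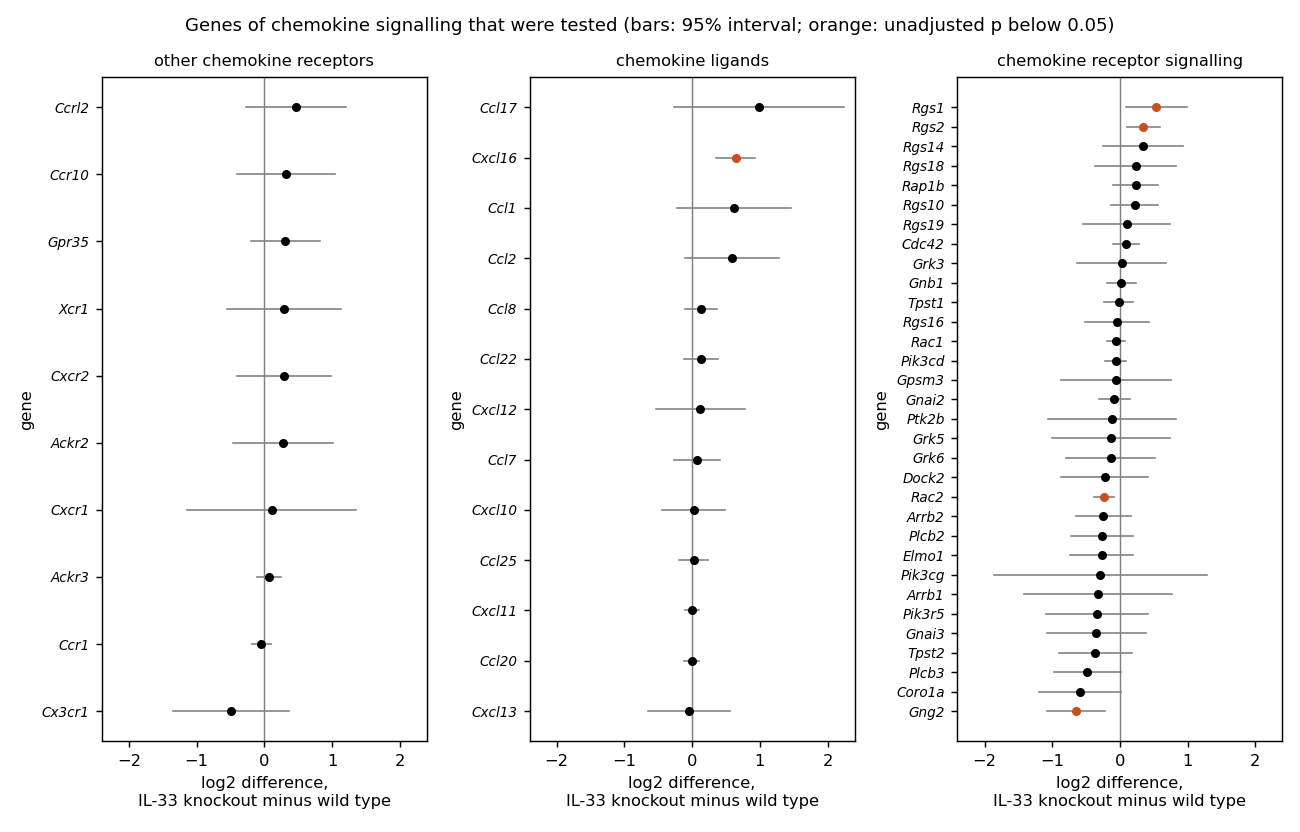
Log2 difference (x axis), IL-33 knockout minus wild type, with limma's 95% interval, for the tested genes (y axis) of 3 lists: other chemokine receptors (10), chemokine ligands (13) and signalling genes downstream of the receptors (32). Orange points have an unadjusted p below 0.05 (Cxcl16, Rgs1, Rgs2, Rac2 and Gng2), and no gene passed after adjustment over all genes.

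Downstream of the receptors, genes of the G proteins, of desensitization and of the migration machinery were measured for 32 of 35 listed, and all 32 were tested. Of these, 22 were below and 10 above 0 in difference, with a median of -0.10, against 0.04 over all genes tested. None passed, and 4 had an unadjusted p below 0.05, 2 higher and 2 lower in knockout, against 5.05% and 2.59% of all genes tested. Rac2, the blood cell GTPase that drives actin at the leading edge, read 10.87 and 10.76 in knockout arrays, against 11.04, 11.08 and 11.04 in wild type (difference -0.23, SE 0.05, limma's adjusted p = 0.490). Both knockout arrays lay below every wild-type array. Gng2, a G protein gamma subunit gene, was at 5.93 and 5.47 in knockout and 6.34 to 6.37 in wild type, a difference of -0.65 (SE 0.15, adjusted p = 0.502 with limma). It passed in the fit without replicate 1 and in the fit without replicate 2, each with 1 knockout array. Coro1a and Plcb3, of actin turnover and of phospholipid signalling, were also lower in both knockout arrays, by -0.59 and -0.48 in difference, with unadjusted p of 0.0532 and 0.0535. Rgs1 and Rgs2, both brakes on G protein signalling, were higher in both, by 0.54 and 0.35. Rgs2 had 2 probe sets, and the one with the higher mean is given. The groups did not overlap for 7 of the 32 genes, 4 of them lower and 3 higher in knockout, against 6.32% lower and 11.6% higher over all genes tested.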

How the data were processed

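RNA of lung ILC2s was Trizol-extracted, biotin-labelled and hybridised to arrays, per the labels' protocols. The authors deposited log2 signals per probe set, for which Affymetrix Expression Console and RMA are named, per the submitters' processing notes. Their versions and settings are not stated. RMA equalises arrays, so a shift of all transcripts cannot be seen.

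Of 41345 probe sets, 23521 had 1 symbol, 1814 several and 16010 none. Symbols were updated through gene identifiers with RefSeq (GRCm38.p6). The probe set with the highest mean stood for a gene, and the dimmest 25% of 22180 genes were left out, which left 16635. The knockout and wild-type arrays were tested against each other by limma 3.58.1 under R 4.3.3 (lmFit, eBayes, Benjamini-Hochberg adjustment over all genes tested, threshold 0.05), without a block. The fit was also run on simulated arrays, drawn with the wild-type spread in both groups. In the data the knockout spread could be far wider, as for Cxcr4 (SD 0.94 against 0.02 in wild type). That run therefore checks the code and not the count of genes called here. Named besides the 10 members were up to 6 genes with the smallest p from each pathway list and, per marker list, up to 3 with the largest differences, with Gata3, Il7r, Rora and Icos added. Not every marker so chosen is printed. Il33, Xist, Uty, Kdm5d, Eif2s3y, Kdr, Tek, Emcn, Cdh1, Krt18, Foxj1, Cd3g and Lyz2 were named after their values were seen. So were Ly6g, Mcpt8, Ms4a2, further ligands and the cluster genes. The members and lists were chosen with earlier results of these data known. No similarity of pattern was computed, since 5 arrays are fewer than the 6 that a correlation needs. Alternatives covered probe sets, filter, normalization, variance model, array weights, a replicate block, the threshold and leaving out each array.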

Additional observations from a re-analysis of the deposited data

How the results depend on the processing

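Under the alternatives that removed no array, including the replicate block and an adjusted p of 0.10, 0 genes, 0 of the 10 receptors and 0 of the other pathway genes passed. Leaving out 1 array at a time, the count ran from 0 to 1072 over all genes, from 0 to 2 among the receptors and from 0 to 5 among the other pathway genes. Every count above 0 came from the fits with 1 knockout array. Without knockout replicate 1 they were 1072, 2 (Cxcr3 and Cxcr5) and 5, and without knockout replicate 2 they were 389, 1 (Cxcr4) and 1. In such a fit the lone array is assumed to vary like the wild-type ones.

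Of 138 receptor values over the alternatives, 129 neither turned to the opposite sign nor passed the threshold, 3 passed it and 6 changed sign. The probe-set, filter and variance-model settings could not move a difference, since each receptor had 1 probe set. Their values among the 129 therefore say nothing on the stability of the sign. The sign changes were those of Ccr4, Ccr7, Ccr8 and Cxcr4 when 1 knockout array was left out, and of Ccr6 after quantile normalization (-0.0081) and median centring (-0.0080). With 1 array left out the difference ran from -0.4372 to 0.7461 for Ccr4, from -0.8284 to 0.2683 for Ccr7, from -0.0705 to 0.7277 for Ccr8 and from -0.0373 to 1.2975 for Cxcr4. The other differences over all alternatives ranged from -0.84 to -0.14 for Ccr2, from 0.08 to 0.34 for Cxcr3, from -0.47 to -0.01 for Cxcr5 and from -0.18 to -0.06 for Cxcr6. For Ccr9 the difference lay between -0.05 and 0. The cause was not tested beyond the arrays left out. Ccr6 and Cxcr5 were not tested when the dimmest 50% of genes were left out. With the replicate number as a block, 0 genes passed and the difference of Cxcr4 was 0.63. Only wild type has a replicate 3, so that array did not enter the block differences. They equal those of the fit without wild-type replicate 3 (0.0321 for Ccr4 in both), and the block is no separate check of them. Deviations from the group means correlated at -0.04 and 0.12 between same-numbered arrays. These values cannot decide whether the numbers pair samples, because the knockout arrays deviate from their own mean as exact mirror images. The block was used as an alternative only. Signal over background could not be judged, since no detection call was at hand.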

Other observations

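Markers of cell types other than ILC2s differed in how the 2 knockout arrays stood. Lung epithelium markers had list means of 5.08 (replicate 1) and 4.64 (replicate 2) in knockout, while wild-type arrays lay at 4.23 to 4.38, and Scgb3a2, a gene of airway secretory cells, was at 6.21 in replicate 1, 2.07 in replicate 2 and 2.10 to 2.20 in wild type. Fibroblast markers averaged 3.74 and 3.84 in knockout, against 3.65 to 3.79, and ILC3 markers 3.80 and 3.81, against 3.81 to 3.95. Ngp, a granule gene of neutrophil precursors, was at 5.40 in replicate 1 but at 3.83 in replicate 2, where wild-type arrays read 3.74 to 3.83. Other genes of the granulocyte and mast cell list did not all share this. Ly6g, too dim to be tested, read 2.77 and 2.91 in knockout, against 2.91 to 3.22 in wild type. Among the 9 markers of that list tested, 6 were above and 2 below 0 in difference, and 1 was at 0. Cldn5 and Cdh5, both of endothelial junctions, were at 5.95 and 6.68 and at 6.26 and 7.14 in knockout, against 4.48 to 5.13 and 4.98 to 5.68 in wild type. Flt1, a VEGF receptor gene, was also higher in both knockout arrays, at 5.15 and 4.63 against 4.10 to 4.28. Some other endothelial genes did not share this. Kdr, another VEGF receptor gene, read 4.18 and 4.30 against 4.39 in all wild-type arrays. Tek and Emcn, too dim to be tested, differed by -0.17 and -0.37. Emcn was at 4.03 in wild-type replicate 2 and at 2.81 in the other wild-type arrays. Of the 10 endothelium markers tested, 7 were above and 3 below 0 in difference. Ly6c2, of monocytes, was at 4.62 and 5.32 in knockout and 4.33 to 4.62 in wild type. ILC2 markers averaged 8.37 and 8.47 in knockout arrays and 8.47 to 8.62 in wild type. Their differences were mostly negative, with 3 above and 11 below 0 among the 14 tested and a median of -0.23. The 3 higher ones were Icos (1.27), Rora (0.37) and Il7r (0.10), and the 11 lower ones included Nmur1 (-0.56) and Il5 (-0.84). For Il5 the low array was knockout replicate 1, at 4.43, while knockout replicate 2 shared the value of wild-type replicate 1, 5.59.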
